A study of Drosophila simulans with 22 samples.

Results

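The transcription start site clusters (TSCs) described here are isolated promoters of the Drosophila simulans embryo that the authors' list ties to no gene. They are TSCs with no gene identifier on chromosome arms 2L, 2R, 3L, 3R and X, whose 5′ end has no base of a gene-assigned TSC of either strand within 5 kb, and whose highest hourly level reaches 2 RPM (reads in the TSC scaled to 1000000 reads in all TSCs of the sample). The rule selected 956 of the 25410 TSCs in the list. They are 30.4% of the 3140 unassigned TSCs of these arms that reach 2 RPM, and the remaining 2184 lie nearer to a gene-assigned TSC. A further 560 unassigned TSCs are as isolated but stay under 2 RPM. Distance and highest level chose these TSCs, so both are given as description only.

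A promoter is the stretch of DNA where RNA polymerase II starts a transcript, and RAMPAGE maps it by sequencing cDNAs that reach the capped 5′ end of an RNA, so that the first base of a read marks the start site. A TSC is a cluster of such start sites and stands for a promoter. Promoters far from known genes can serve long noncoding RNAs, protein-coding genes missing from an annotation, distant first exons of known genes or transcripts that begin inside repeats, and RAMPAGE read counts alone do not tell these apart. In fly embryos, transcripts loaded by the mother come first, and the zygotic genome takes over as they are cleared.

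The study followed promoter activity through embryogenesis at a resolution of 1 h. Whole staged embryos of the reference genome strain w[501] were collected at 22 ages, from 0-1 h to 21-22 h after egg laying, with 1 sample at each age and no treatment. All samples share that strain. Each was labelled with its own barcode at reverse transcription, and all were then combined and processed in 1 library. The hours thus differ in age, in depth and in the steps before they were combined, and differences in those steps cannot be told apart from age. Embryos hold all tissues together, and fewer cells of a type and less RNA per cell cannot be told apart.

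The shallowest sample, 12-13 h, had 322564 reads and the deepest, 9-10 h, 17206157, around a median of 2858592. At 12-13 h a single read is worth 3.10 RPM, above the 2 RPM of the rule. The 12-13 h sample alone carried 43 of the 956 isolated TSCs over 2 RPM, 33 of them with 1 read there, and without it the rule selects 913. It was the highest hour of 135 isolated TSCs, of which 95 had at most 3 reads there. At least 10 reads in the highest hour were found for 555 isolated TSCs, and 351 reached 10 RPM. Counts that could turn on the shallow sample are therefore given for these subsets too.

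The isolated TSCs covered all 5 arms, with 178 on 2L, 173 on 2R, 219 on 3L, 233 on 3R and 153 on X. The X chromosome held 16.0% of them, 17.8% of the nearer unassigned TSCs and 12.2% of the 14607 gene-assigned TSCs of these arms that reach 2 RPM. Both strands were used alike, with 479 on the plus strand and 477 on the minus strand. Their 5′ ends lay at a median of 11588 bp from the nearest gene-assigned TSC, 557 were farther than 10 kb, 267 farther than 20 kb and 32 farther than 50 kb. No genome sequence or gene models of release r1.4, the build of these coordinates, were used here, so exons, introns, repeats and core promoter motifs were not analysed.

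Isolated TSCs were narrow. The median width was 23 bp (quartiles 12 and 64 bp), against 30 bp for nearer unassigned and 72 bp for gene-assigned TSCs. Width went with level in all 3 sets. Where the maximum was 10 to 25 RPM, the median widths were 35, 63 and 68 bp for the isolated, nearer unassigned and gene-assigned sets, and among TSCs of 100 RPM or more they were 110, 126.5 and 119 bp. The strongest isolated TSCs were thus about as wide as other strong promoters, while the weaker ones were narrower than other TSCs of their level. These shares and medians describe the list, and no test was run over TSCs.

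Most isolated TSCs were weak and a few were very strong. The highest hourly level had a median of 6.20 RPM (quartiles 3.10 and 21.0 RPM), and it reached 25 RPM in 207 isolated TSCs, 100 RPM in 79 and 1000 RPM in 8. The 10 isolated TSCs with the most reads held 46.7% of all 1555726 reads of the set, and the 50 with the most reads held 74.9%. At the limits of the rule, RAMPAGEpeak_024547 just passed with 2.04 RPM from 5 reads, and RAMPAGEpeak_004786 just missed with 2.00 RPM from 17 reads. On the distance side, RAMPAGEpeak_017034 lay 5001 bp and RAMPAGEpeak_021012, which reaches 195 RPM, lay 4999 bp from a gene-assigned TSC.

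The strongest isolated promoter was a late one on the X chromosome. RAMPAGEpeak_012853 (chrX:14729839-14729960, minus strand, 5408 bp from a gene-assigned TSC) stayed between 35.7 and 404 RPM in every sample up to 13-14 h. It then measured 1048, 2050.04 and 3664 RPM in the 3 samples from 14-15 h on and 7012 RPM at 17-18 h (13583 reads, 95% Wilson interval 6896 to 7131 RPM), before 5548 RPM at 18-19 h and 1260 RPM at 19-20 h. All 8 samples from 14-15 h on lay above all 14 earlier ones. At 17-18 h this single TSC held 44.0% of all reads in isolated TSCs. In a limma fit to log2(RPM + 1) over all TSCs, its mean over 15-22 h was 3.40 ± 0.47 (SE) log2 units above that over 9-15 h. This TSC was named for its level in 15-22 h, so the difference is a description.

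A second late promoter on X and a biphasic one on 3L completed the 3 strongest of the last window. RAMPAGEpeak_012387 (chrX:12998803-12998857, plus strand) lay between 1.91 and 114 RPM in the samples up to 16-17 h, was at 222.5 RPM at 17-18 h and climbed to 748 RPM at 21-22 h (2128 reads, interval 716 to 780.01 RPM). RAMPAGEpeak_004327 (chr3L:8489106-8489227, minus strand) had a pair of maxima. It rose from 3.57 RPM at 2-3 h to 2040.4 RPM at 10-11 h, dropped step by step to 399 RPM at 17-18 h and rose again to 2307 RPM at 21-22 h (6567 reads, interval 2252 to 2363 RPM). Its 22 values had a median of 570.3 RPM, and both maxima stood over 5 times above the trough between them, far beyond counting error.

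**Figure D1:**
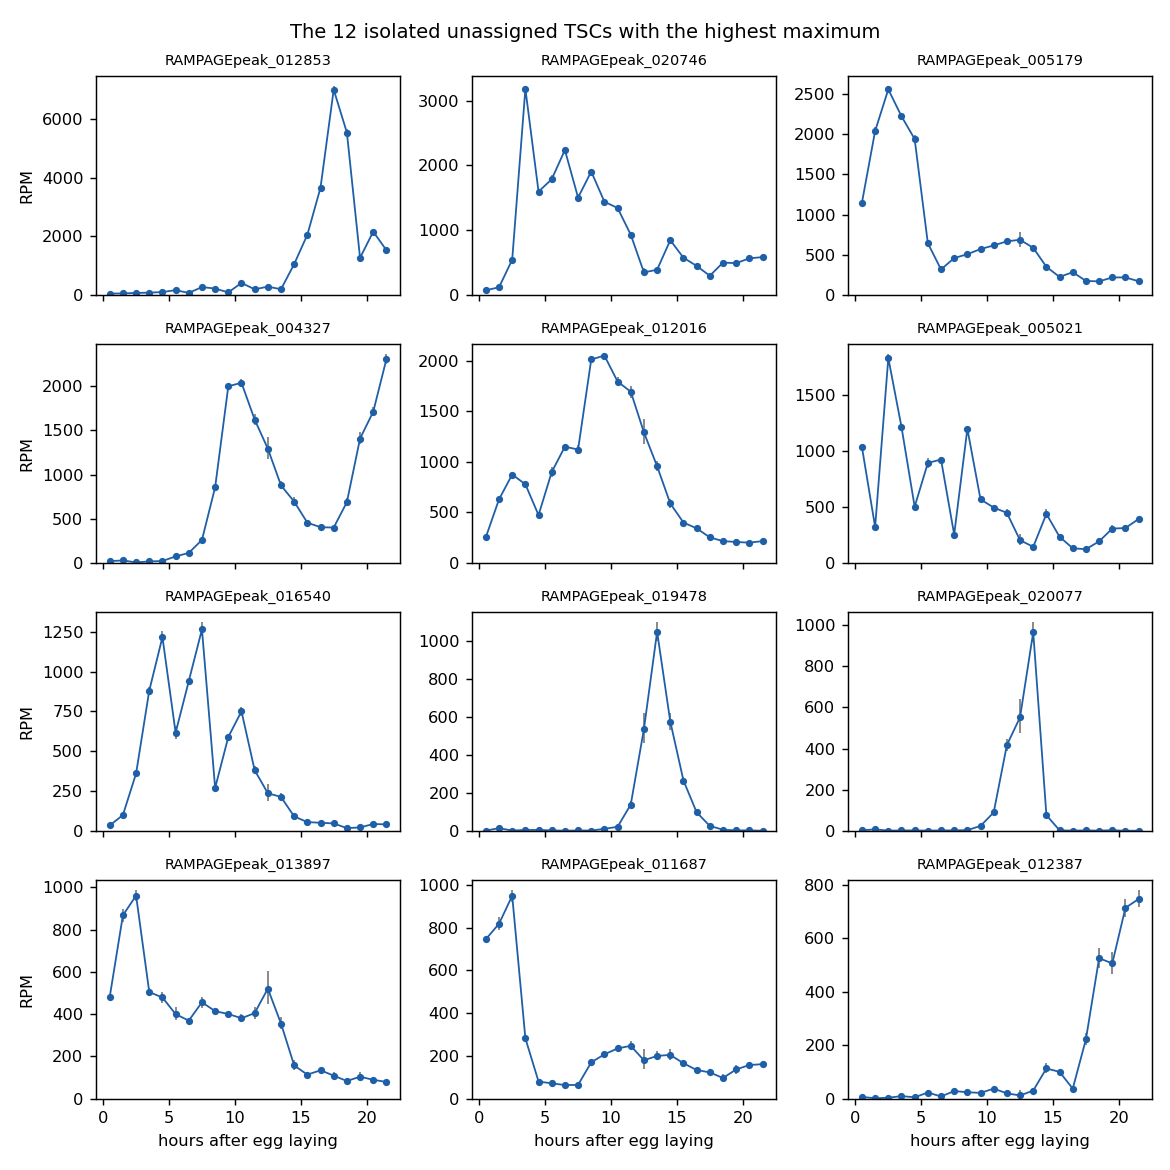
Level (RPM) of the 12 isolated unassigned TSCs with the highest maximum against hours after egg laying, with points at the middle of each 1 h sample and 95% Wilson intervals (counting error only) as grey bars, mostly smaller than the points. The panels show sharp late (RAMPAGEpeak_012853, 7012 RPM at 17-18 h), early (RAMPAGEpeak_005179, 2562 RPM at 2-3 h), mid-embryonic (RAMPAGEpeak_020077, 966 RPM at 13-14 h) and biphasic (RAMPAGEpeak_004327) courses.

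The strongest TSCs of the first hours kept a lower level to the end. RAMPAGEpeak_005179 (chr3L:10286138-10286328, minus strand) was at 1149 RPM at 0-1 h, peaked at 2562 RPM at 2-3 h (12215 reads, interval 2517 to 2608 RPM), was at 643 RPM by 5-6 h and had a lowest value of 166 RPM at 18-19 h. RAMPAGEpeak_013897 (chrX:13842638-13842789, minus strand) peaked at 961 RPM at 2-3 h, held between 356 and 521 RPM from 3-4 h to 13-14 h and ended at 79.7 RPM. RAMPAGEpeak_011687 (chrX:2271656-2271739, plus strand) fell from 949 RPM at 2-3 h to 64.2 RPM at 6-7 h and returned to 248 RPM at 11-12 h. All 3 were detected in every sample, so none was confined to the first hours.

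RAMPAGEpeak_005021 (chr3L:7893753-7893852, minus strand) fell and rose again between adjacent hours. The 3 samples from 0-1 h to 2-3 h measured 1033, 319 and 1831 RPM, and those from 6-7 h to 8-9 h measured 923, 252 and 1198 RPM. Another isolated TSC, RAMPAGEpeak_004934, starts 672 bp away on the same strand, and it made the same steps, with 279, 93.0 and 619 RPM at 0-1 h to 2-3 h and 274, 70.0 and 394 RPM at 6-7 h to 8-9 h. Over the 22 hours, which share library and depth, the log2 profiles of this pair had r = 0.986. Steps of this size between adjacent hours are far outside counting error, and with 1 sample per hour they cannot be told apart from differences between embryo collections.

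The strongest isolated TSC of the 3-9 h window rose within the first 4 samples. RAMPAGEpeak_020746 (chr3R:14929775-14930052, plus strand), 278 bp wide, went from 67.9 RPM at 0-1 h through 539.65 RPM at 2-3 h to 3182 RPM at 3-4 h (21459 reads, interval 3140.1 to 3225 RPM), and stayed at or above 927 RPM through 11-12 h. Its mean over 3-9 h was 3.60 ± 0.47 log2 units above that over 0-3 h, a description, since this TSC was named for its level in 3-9 h. RAMPAGEpeak_016540 (chr2R:3203059-3203151, plus strand) rose from 33.2 RPM at 0-1 h to 1216 RPM at 4-5 h, had its maximum of 1265 RPM at 7-8 h, just before 269 RPM at 8-9 h, and was under 100 RPM in all 8 samples from 14-15 h on. RAMPAGEpeak_008465 (chr2L:5035607-5035772, minus strand) rose from 17.4 RPM to 702 RPM at 3-4 h and lay between 342 and 706 RPM through 11-12 h. All 3 were still detected in the last sample.

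Mid-embryonic isolated TSCs included both broad and very brief ones. RAMPAGEpeak_012016 (chrX:14872725-14872967, plus strand, 17032 bp from a gene-assigned TSC) was present from the start at 253 RPM, peaked at 2050.5 RPM at 9-10 h (35281 reads, interval 2029 to 2072 RPM) and declined to 199 RPM at 20-21 h. RAMPAGEpeak_019478 (chr3R:22700315-22700355, plus strand) was at or under 20.8 RPM in all samples up to 10-11 h, peaked at 1048 RPM at 13-14 h and was listed at 0 at 21-22 h. RAMPAGEpeak_020077 (chr3R:2090958-2090970, plus strand), only 13 bp wide, went from 23.4 RPM at 9-10 h over 89.1, 417 and 552 RPM to 966 RPM at 13-14 h (1637 reads, interval 920.1 to 1014 RPM), then to 75.7 RPM at 14-15 h and 2.05 RPM at 15-16 h. Its values up to 8-9 h were all at or under 6.82 RPM.

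RAMPAGEpeak_020077 also had the largest rise from 3-9 h to 9-15 h, 6.14 ± 0.62 log2 units, and the largest fall from 9-15 h to 15-22 h, -6.54 ± 0.60 log2 units, among isolated TSCs called in those contrasts. From 0-3 h to 3-9 h the largest rise was that of RAMPAGEpeak_002840 (chr3L:18150443-18150536, plus strand), by 5.49 ± 0.97 log2 units, with values from 0.376 RPM at 0-1 h to 681 RPM at 7-8 h. The largest fall over the same windows was -4.87 ± 0.90 log2 units for RAMPAGEpeak_014992 (chr2R:2476741-2476921, plus strand), which went from 111 RPM at 1-2 h to 0.235 RPM at 6-7 h and came back to 57.2 RPM at 13-14 h. Since these were chosen for their size, they are descriptions.

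A fall into the middle of embryogenesis and a late start complete the extremes. RAMPAGEpeak_017287 (chr2R:16714437-16714505, minus strand) peaked at 201 RPM at 6-7 h, was listed at 0 at 11-12 h and 12-13 h and ended at 14.7 RPM, and its mean over 9-15 h was 4.98 ± 0.61 log2 units below that over 3-9 h. RAMPAGEpeak_002588 (chr3L:19525641-19525761, plus strand) was at or under 2.95 RPM in every sample up to 14-15 h and between 5.81 and 30.2 RPM from 15-16 h on, a difference of 3.43 ± 0.39 log2 units between the last windows. Its 7 late samples all lay above its 15 earlier ones. Both TSCs were chosen for the size of these differences, so the values are descriptions.

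The most time-restricted isolated TSCs had more than 50% of their summed RPM in a single sample. RAMPAGEpeak_007128 (chr2L:21721472-21721480, plus strand), 9 bp wide, had 90.1% of its summed RPM at 2-3 h, with 86.8 RPM from 414 reads. Its neighbouring hours had 3.27 and 2.22 RPM, 0-1 h had 4.04 RPM, and the other 18 samples were at 0. RAMPAGEpeak_022637 (chr3R:10216341-10216360, minus strand) had 55.0% of its sum at 12-13 h, with 360 RPM from 116 reads in the shallowest sample (interval 299.9 to 431 RPM), between 191 RPM at 11-12 h and 60.8 RPM at 13-14 h. RAMPAGEpeak_006379 (chr2L:16074298-16074323, plus strand) held 51.5% of its sum at 9-10 h with 449 RPM, beside 188 RPM at 8-9 h and 44.4 RPM at 10-11 h, and had a second, lower rise to 41.4 RPM at 19-20 h.

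At the other end, the flattest isolated TSCs still varied more than 5-fold. RAMPAGEpeak_005196 (chr3L:22353023-22353105, minus strand) lay between 8.96 and 46.9 RPM with a median of 19.5 RPM, and its change with hour was called with the main scaling (adjusted p = 0.00277) but not with TMM factors, DESeq2 size factors or edgeR, where adjusted p was 0.0673, 0.377 and 0.145. RAMPAGEpeak_022707 (chr3R:4447485-4447594, minus strand) lay between 12.3 and 66.1 RPM. RAMPAGEpeak_018353 (chr2R:11353826-11353886, minus strand), 32643 bp from a gene-assigned TSC, lay between 34.2 and 206 RPM with a median of 91.2 RPM. Among isolated TSCs of at least 10 RPM, no highest value was less than 5.23 times the lowest, the ratio of RAMPAGEpeak_005196.

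The most remote isolated TSCs differed in level. RAMPAGEpeak_004282 (chr3L:22538266-22538321, minus strand) lay 81150 bp from the nearest gene-assigned TSC and was an early TSC, with a highest value of 3.27 RPM from 12 reads at 1-2 h (interval 1.87 to 5.72 RPM) and 12 samples at 0. RAMPAGEpeak_005806 (chr3L:21519666-21519683, minus strand), at 80231 bp, rested on 4 reads in its highest hour. RAMPAGEpeak_008899 (chr2L:17566930-17566977, minus strand), at 74838 bp, was under 5 RPM up to 12-13 h and between 11.4 and 23.2 RPM afterwards. The median maximum was 6.16, 6.12 and 6.72 RPM for isolated TSCs at 5 to 10 kb, 10 to 20 kb and beyond 20 kb. The rule kept only TSCs that reach 2 RPM, so these medians cannot show whether level goes with distance.

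Restriction in time was frequent among isolated TSCs. Following the study's classes, a TSC that reaches 10 RPM is regulated when at least 60% of its summed RPM falls in 8 consecutive hours, and housekeeping when its highest value is under 5 times its lowest. Of the 351 isolated TSCs of at least 10 RPM, 306 (87.2%) were regulated and 0 housekeeping, against 507 (72.4%) and 18 of 700 nearer unassigned TSCs and 5556 (60.2%) and 540 of 9227 gene-assigned TSCs. With TMM factors 288 isolated TSCs were regulated and 2 housekeeping. The other sets were not classed with TMM factors, so the comparison of sets rests on RPM. The order of the sets held at matched level: at 10 to 25, 25 to 100 and 100 RPM or more, the regulated shares were 92.4%, 84.4% and 82.3% for isolated, 79.0%, 70.6% and 62.0% for nearer unassigned and 68.7%, 57.7% and 56.6% for gene-assigned TSCs. Among isolated TSCs alone, 116 of 137 (84.7%) were regulated at 5 to 10 kb, 92 of 104 (88.5%) at 10 to 20 kb and 98 of 110 (89.1%) beyond 20 kb. Whether these shares differ was not tested.

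**Figure D2:**
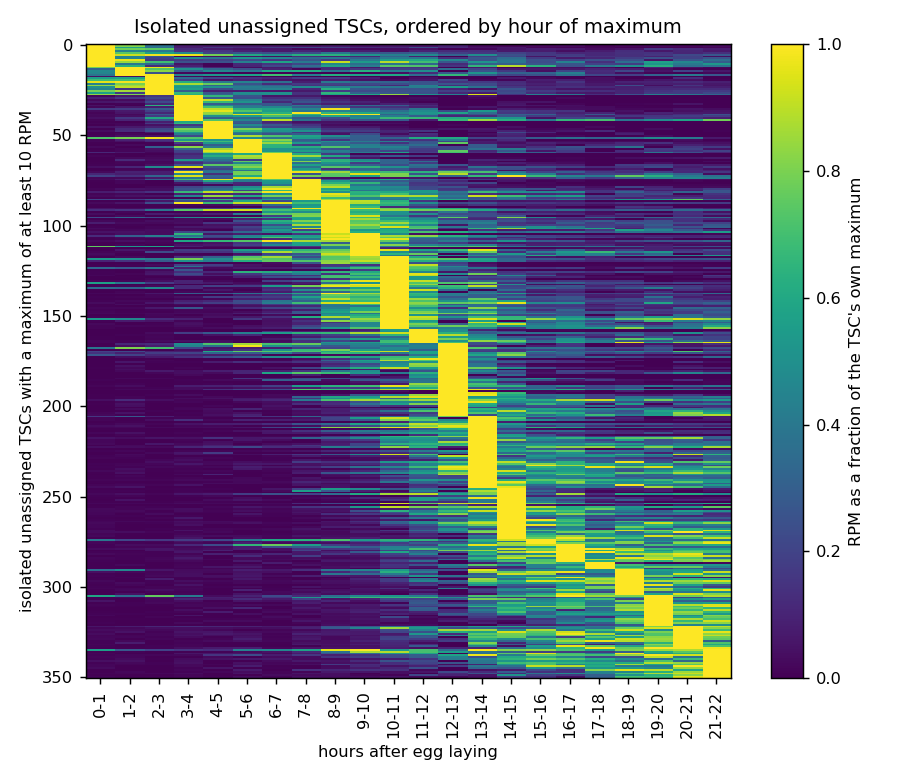
Level in each sample (columns, hours after egg laying) of the 351 isolated unassigned TSCs that reach 10 RPM (rows), each as a fraction of its own maximum and ordered by the hour of that maximum. The blocks at 10-11 h, 12-13 h and 13-14 h hold 40 TSCs each, and 29 TSCs peak in the first 3 samples. With 10 reads required in the highest hour, 14 of the 40 at 12-13 h, the shallowest sample, remain.

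Few isolated TSCs had their highest hour at the start of embryogenesis, and which later window held the most turned on scaling. With RPM, of the 351 TSCs of at least 10 RPM, 29 (8.26%) peaked in 0-3 h, 76 (21.7%) in 3-9 h, 169 (48.1%) in 9-15 h and 77 (21.9%) in 15-22 h. Nearer unassigned TSCs had 21.0% and 32.3% in 0-3 h and 9-15 h, and gene-assigned TSCs 31.8% and 27.1%. With 10 reads required in the highest hour, the share of isolated TSCs in 9-15 h was 44.0% (143 of 325), against 27.6% of nearer unassigned and 24.7% of gene-assigned TSCs. The 79 isolated TSCs of at least 100 RPM had 17.7% in 0-3 h and 46.8% in 9-15 h. A maximum whose Wilson interval lies above those of both neighbouring hours was found for 95 of the 351, and the exact hour is uncertain by counting error for the others. With TMM factors in place of RPM, 30 (8.55%) of the 351 peaked in 0-3 h, 103 (29.3%) in 9-15 h and 136 (38.7%) in 15-22 h, so that the last window led. The share in 9-15 h was then 20.0% for nearer unassigned and 16.5% for gene-assigned TSCs, and that in 0-3 h 20.1% and 31.5%. The isolated TSCs thus had the highest share in 9-15 h and the lowest in 0-3 h of the 3 sets under both scalings.

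**Figure D3:**
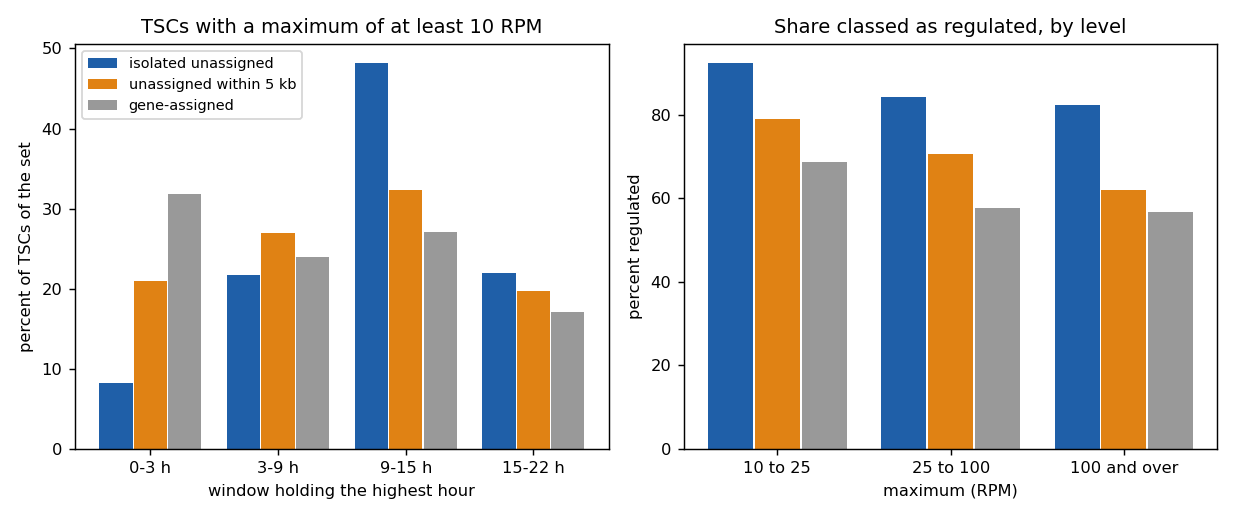
Left, percent of TSCs reaching 10 RPM whose highest hour lies in each window, for isolated unassigned TSCs (351, blue), unassigned TSCs within 5 kb (700, orange) and gene-assigned TSCs (9227, grey), with 48.1% of the isolated TSCs in 9-15 h by RPM (29.3% with TMM factors, where 15-22 h leads with 38.7%). Right, from RPM only, percent of each set classed as regulated by maximum level, where the isolated TSCs are highest at all 3 levels (92.4%, 84.4% and 82.3%).

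Change with hour was tested with a natural cubic spline of 4 degrees of freedom on log2(RPM + 1), fitted with limma to all 20118 TSCs that reach 2 RPM with calls at 0.05 after Benjamini-Hochberg adjustment. There is 1 sample per hour, so the error is the scatter of hours around a smooth curve. The test called 735 of the 956 isolated TSCs, or 76.9%, beside a background of 82.1% of all TSCs. Where at least 10 RPM was required, 350 of 351 isolated TSCs were called, beside 94.2% of all. Of the 555 isolated TSCs with at least 10 reads in their highest hour, 512 (92.3%) were called, beside 90.6% of all TSCs with that many. With edgeR's quasi-likelihood test on the recovered reads, 877 of 956 (91.7%) were called, beside 83.2% of all. Among called TSCs the fitted curve spanned a median of 2.52 log2 units in isolated TSCs and 2.66 in all, and the median scatter around the curve was 0.55 and 0.57 log2 units. Whether the share of isolated TSCs that change with hour lay below or above the background thus differed between limma and edgeR and with the minimum level.

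Neighbouring windows were then compared in a limma fit over the same TSCs, which treats the hours within a window as repeats although they differ in age. From 0-3 h to 3-9 h, 196 isolated TSCs (20.5%) rose, beside 13.5% of all TSCs, and 41 (4.29%) fell, beside 11.0%. The rises numbered 128 (13.4%) without the 0-1 h sample, beside 9.36% of all TSCs, and 331 (34.6%) with edgeR, beside 19.1%. From 3-9 h to 9-15 h, 292 (30.5%) rose, beside 21.4%, and 118 (12.3%) fell, beside 17.8%. The median difference over isolated TSCs was 0.42 and 0.41 log2 units in these contrasts and 0.12 and 0.09 over all TSCs. With a minimum of 10 RPM, 119 of 351 isolated TSCs (33.9%) rose and 24 (6.84%) fell into 3-9 h, beside 16.6% and 15.6% of all, and 193 (55.0%) rose and 40 (11.4%) fell into 9-15 h, beside 28.7% and 22.1%. Rises were thus above and falls below their background in both contrasts.

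From 9-15 h to 15-22 h the outcome turned on scaling. With RPM, 113 isolated TSCs (11.8%) rose, beside 11.3% of all TSCs, and 212 (22.2%) fell, beside 30.5%, and the median over all TSCs was itself -0.46 log2 units. With TMM factors that median was -0.10, and 169 isolated TSCs rose and 118 fell, beside 16.4% and 11.7% of all. With DESeq2 size factors it was -0.02, and 183 rose and 105 fell, beside 18.4% and 10.2%. With edgeR 126 rose and 115 fell, beside 14.0% and 11.8%. With RPM and a minimum of 10 RPM, 67 of 351 (19.1%) rose and 131 (37.3%) fell, beside 13.0% and 44.5%, and of the 555 with 10 reads in the highest hour 139 (25.0%) fell, beside 34.5%. The median over isolated TSCs was -0.29 with RPM, -0.09 with TMM factors and -0.03 with DESeq2 size factors. Which direction was the more frequent among isolated TSCs thus changed with the scaling, as it did among all TSCs. The 3 contrasts share windows, and each stands for itself.

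**Figure D4:**
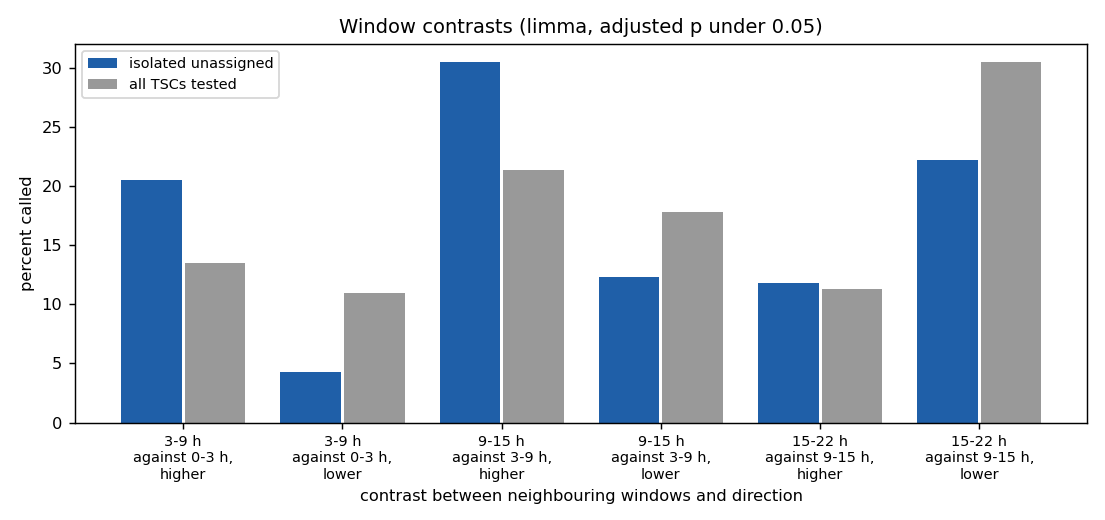
Percent of isolated unassigned TSCs (956, blue) and of all TSCs tested (20118, grey) called higher or lower in the later of neighbouring windows (limma on log2(RPM + 1), adjusted p under 0.05). Isolated TSCs exceed the background among rises into 3-9 h (20.5% against 13.5%) and 9-15 h (30.5% against 21.4%) and lie under it among all 3 groups of falls, though for falls into 15-22 h only with RPM and not with TMM or DESeq2 factors.

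As a set, isolated TSCs took a small share of the reads on the placed chromosomes. The share was 0.924% at 0-1 h (Wilson interval 0.918% to 0.930%), reached 2.22% at 10-11 h (2.20% to 2.23%) and lay between 1.37% and 1.71% in the 7 samples of 15-22 h. Its mean was 1.09% ± 0.24 (SD, n = 3 hours) over 0-3 h and 1.97% ± 0.17 (n = 6) over 9-15 h. The ranges, 0.924% to 1.36% and 1.73% to 2.22%, did not overlap. Nearer unassigned TSCs showed this too, with shares of 2.72% to 2.96% over 0-3 h and 3.21% to 4.39% over 9-15 h. Without the 10 isolated TSCs with the most reads the share ran from 0.429% at 1-2 h to 1.51% at 13-14 h. Reads in isolated TSCs were 0.331 to 0.796 times those in nearer unassigned TSCs, with a mean of 0.391 ± 0.095 over 0-3 h and 0.587 ± 0.14 (n = 7) over 15-22 h, and 0.349 at 15-16 h lay within the range of the first hours.

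At equal depth, the number of isolated TSCs detected was lowest in 0-3 h and highest at 13-14 h. With every sample thinned to 322564 reads, 59 isolated TSCs had at least 3 reads at 0-1 h, 62 at 1-2 h and 66 at 2-3 h. The number was 108 at 3-4 h, rose to a highest value of 247 at 13-14 h and lay between 178 and 202 from 15-16 h on. Unthinned, it ran from 227 at 1-2 h to 826 at 9-10 h, following depth. Between 0-3 h and 9-15 h the mean thinned number rose 3.52-fold while the mean share of reads rose 1.81-fold. Since the set was chosen on its highest hour, these numbers are descriptions. Thinned numbers were not computed for other TSCs, so whether the rise is particular to isolated TSCs was not tested.

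**Figure D5:**
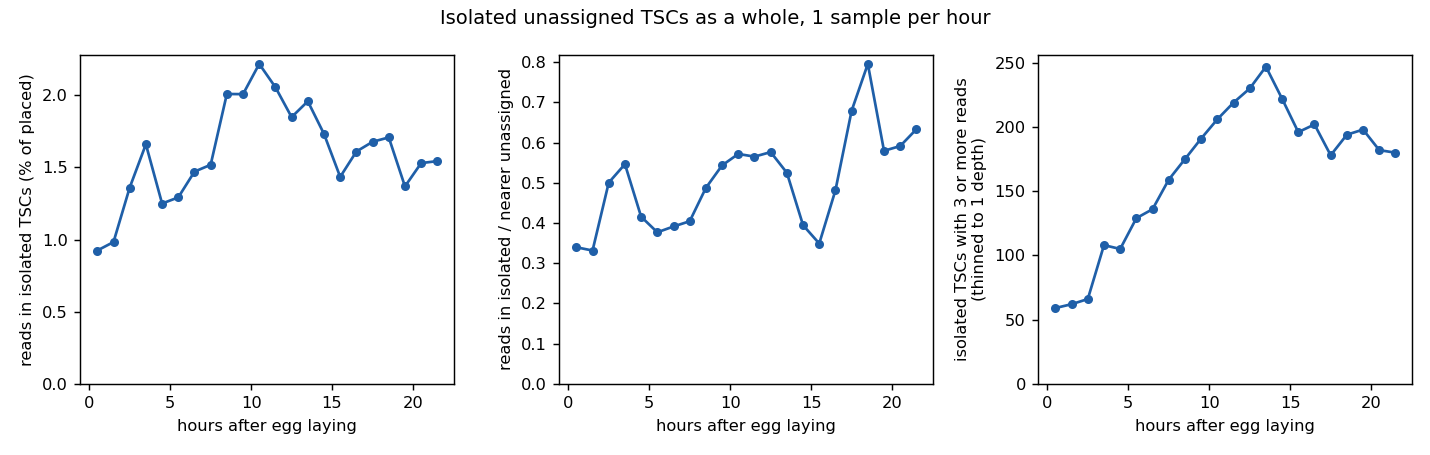
Share of placed reads in isolated unassigned TSCs (left, percent), ratio of these reads to those in unassigned TSCs within 5 kb (middle) and number of isolated TSCs with at least 3 reads after thinning every sample to 322564 reads (right), against hours after egg laying, with 1 sample per hour and no error bar. The share is highest at 10-11 h (2.22%), the ratio at 18-19 h (0.796) and the number at 13-14 h (247).

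Some isolated TSCs were close to each other. Joined where their 5′ ends lay within 5 kb, the 956 TSCs formed 727 loci, 158 of which held at least 2 and together 387 isolated TSCs. Loci were not formed for other TSCs, and the rule keeps isolated TSCs to stretches without gene-assigned TSCs. Whether this closeness is particular to isolated TSCs was thus not tested. The largest, on 3R with 5′ ends from 900230 to 914176, held 7 isolated TSCs, 3 on the plus strand, none above 18.6 RPM. The locus of RAMPAGEpeak_020746 held 4, of which the other 3 reached 15.5, 4.75 and 2.64 RPM. Whether start sites of a locus belong to 1 transcript was not analysed, and isolated TSCs were not treated as independent.

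Within 1 kb, 75 pairs of isolated TSCs lay on the same strand, 30 were divergent and 15 convergent. The median correlation of their log2 profiles over the 22 hours was 0.490, 0.448 and 0.222. Where both TSCs reached 10 RPM, it was 0.791 in 14 same-strand pairs and 0.798 in 3 divergent pairs. RAMPAGEpeak_025062 (chr3R:11788209-11788255) and RAMPAGEpeak_024702 (chr3R:11787237-11787470), with 5′ ends 785 bp apart on the minus strand, both had a first maximum at 3-4 h of 52.7 and 22.4 RPM and a larger one at 10-11 h of 272 and 60.7 RPM, with lower values between (r = 0.945).

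The correlation was negative in 12 of the same-strand, 3 of the divergent and 4 of the convergent pairs within 1 kb. Close TSCs could also differ in their highest hour. RAMPAGEpeak_012571 (chrX:8789122-8789258, plus strand) was highest at 0-1 h with 706 RPM and at 331 RPM by 3-4 h, when RAMPAGEpeak_012183, 392 bp away on the same strand, was at its highest with 31.9 RPM after 5.36 RPM at 0-1 h (r = 0.560). The divergent pair RAMPAGEpeak_008387 (chr2L:19293404-19293462, minus strand) and RAMPAGEpeak_006540 (chr2L:19294349-19294480, plus strand), 887 bp apart, shared a late course (r = 0.924), with highest values of 15.3 RPM at 13-14 h and 123 RPM at 15-16 h. These correlations rest on 22 samples that both TSCs share.

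Isolated TSCs followed the nearest gene-assigned TSC only loosely. The correlation of log2 profiles over the 22 hours had a median of 0.151 (quartiles -0.17 and 0.454), was negative for 375 of 956 and reached 0.8 for 31. Nearer unassigned TSCs had a median of 0.338. Among TSCs of at least 10 RPM the medians were 0.218 for isolated and 0.381 for nearer unassigned TSCs. Where the neighbour lay upstream or downstream on the same strand the median was 0.210 and 0.219, and on the opposite strand 0.107 and 0.00544. The isolated TSC was the stronger of the pair in 433 of 956 cases, and the nearer unassigned TSC in 806 of 2184. TSCs of both sets had to reach 2 RPM and their neighbours did not, so these counts are descriptions only. RAMPAGEpeak_004327 and its neighbour, which reaches 2981 RPM, had opposite courses (r = -0.77), as had RAMPAGEpeak_005179 and a neighbour of 1749 RPM (r = -0.80), while RAMPAGEpeak_012387 moved with a neighbour of 199 RPM (r = 0.911).

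The label of an unassigned TSC was checked against the authors' gene table, which lists RPM for 8460 genes under other identifiers. For 21 isolated TSCs the 22 read counts alone equal a row of that table, and for 9 more they complete an exact sum with other TSCs, so at least these 30 (3.14%) entered a gene's value there although the TSC list gives them no gene. The search reached 150000 bp and left 2091 gene rows unexplained, so 30 is a minimum. Of the nearer unassigned TSCs, 47 (2.15%) did. The tables do not pair those identifiers with gene names. The search for sums over more than 1 unassigned TSC was added after the data had been seen.

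The strongest of these 30 were mid or late promoters. RAMPAGEpeak_012773 (chrX:11392366-11392401, minus strand) was at or under 8.01 RPM up to 10-11 h, reached 347 RPM at 14-15 h (394 reads, interval 314 to 383 RPM) and was at 2.11 RPM at 21-22 h. RAMPAGEpeak_009096 (chr2L:17960996-17961212, minus strand), 46310 bp from the nearest gene-assigned TSC, was at or under 9.21 RPM up to 9-10 h and between 94.0 and 172 RPM in all samples from 13-14 h on. RAMPAGEpeak_020162 (chr3R:12445900-12445936, plus strand), at 58765 bp, rose from 6.77 RPM at 8-9 h to 134 RPM at 14-15 h. No match was found for the 12 strongest isolated TSCs, which does not show that they are outside the gene table.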

How the data were processed

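RAMPAGE reads of 22 samples were mapped by the authors with STAR (version not given in the sources used here) to FlyBase release r1.4 of D. simulans, TSCs were called with the study's peak caller from all samples pooled, and peaks over rDNA were removed. The authors deposited RPM per TSC and per gene, and a whole-number score per peak of unstated meaning, not used here. RPM were whole multiples of 1 read (100% of values within 0.02 of a whole number), which gave depths of 322564 to 17206157 reads. Intervals are Wilson 95% intervals and cover counting error only, since duplicates were not marked. Whether samples came from separate collections is not stated, so p-values measure scatter between these samples.

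Distances run from the 5′ end of a TSC to the nearest base of a gene-assigned TSC, and coordinates count from 1. All p-values come from limma 3.58.1 (trend option, R 4.3.3) on log2(RPM + 1) of all TSCs that reach 2 RPM, with Benjamini-Hochberg adjustment. The log scale understates the change of weak TSCs. Alternatives were a pseudocount of 0.5 RPM, a minimum of 10 RPM or none, TMM factors and the quasi-likelihood test of edgeR 4.0.16 on the recovered reads, DESeq2 1.42.0 size factors, a spline of 3 degrees of freedom, other distances and leaving out each sample. The fits were tested on simulated data. Python 3.11.15 with scipy 1.17.1 was used for the rest. Permutation tests planned for the hourly sums were left out, as the members and lists were chosen with earlier results of these data known. The planned motif search needs the r1.4 genome and was not run. Named TSCs are the 12 with the highest maximum, the 3 highest of each window, the 3 of at least 10 RPM whose highest value is the smallest multiple of the lowest, the 3 most confined to 1 hour, the 3 most remote, and the largest called rise and fall of each contrast. Members of close pairs, matches to the gene table and TSCs at the limits of the rule are named besides, the first 2 kinds after their values were seen.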

Additional observations from a re-analysis of the deposited data

How the results depend on the processing

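No paired analysis was possible because each hour has 1 sample and no replicate. Of 81 alternatives that keep all samples, 51 left the count or value close to the main one. No log2 difference of the TSCs with the largest rise or fall in a contrast changed sign. The differences given for RAMPAGEpeak_012853 and RAMPAGEpeak_020746 were not put through the alternatives. The balance of rises and falls into 15-22 h did turn with scaling, as did the leading window of highest hours, and edgeR put the share of isolated TSCs that change with hour above that of all TSCs. The number of isolated TSCs was 1623 at a distance of 2 kb, 557 at 10 kb, 351 with at least 10 RPM and 555 with 10 reads in the highest hour. A minimum of 10 RPM, which tests fewer TSCs, gave 350 calls over the hours (99.7%, beside 94.2% of all TSCs). Rises and falls into 3-9 h were then 119 and 24 (33.9% and 6.84%, beside 16.6% and 15.6%). Into 9-15 h they were 193 and 40 (55.0% and 11.4%, beside 28.7% and 22.1%). Into 15-22 h they were 67 and 131 (19.1% and 37.3%, beside 13.0% and 44.5%). Falls into 15-22 h numbered 118 with TMM factors (12.3%, beside 11.7% of all TSCs) and 115 with edgeR (12.0%, beside 11.8%). With DESeq2 size factors there were 105 falls (11.0%, beside 10.2%) and 183 rises (19.1%, beside 18.4%). Among TSCs with 10 reads in the highest hour, a subset chosen after seeing the data, 139 fell (25.0%, beside 34.5%). Rises into 3-9 h numbered 331 with edgeR (34.6%, beside 19.1%), and the cause was not tested.

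From 0-3 h to 9-15 h the share of reads rose 2.82-fold without the 10 TSCs with the most reads and 3.42-fold at 10 kb, and the ratio to nearer unassigned TSCs 2.12-fold and 2.63-fold, against 1.81-fold and 1.36-fold. TMM factors gave 2 housekeeping TSCs, 334 highest from 15 h on and a median Shannon entropy (natural log, higher for more even profiles) of 2.24, against 2.23, and thinning to the shallowest depth gave 1.56. Pairs numbered 18 divergent, 9 convergent and 38 on the same strand within 500 bp, and 27 convergent and 124 on the same strand within 2 kb. Leaving out 1 sample gave 128 to 207 rises into 3-9 h, the lowest without 0-1 h, and 0 to 1 housekeeping TSCs, and 282 of 287 such values stayed close to the main one. Depth limits the 401 isolated TSCs with under 10 reads in the hour of highest RPM, of which 109 have under 10 reads in every hour.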
